A study of Mus musculus with 12 samples.

Results

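The genes described here encode the heterogeneous nuclear ribonucleoproteins (hnRNPs) and the serine/arginine-rich (SR) splicing factors, and were taken by name: every gene with at least 1 single-symbol probe set whose annotated symbol begins with Hnrn, Hnrp or Srsf. That gave 29 genes of the 18193 measured, 19 of them Hnrnp and 10 Srsf, with 91 probe sets in all. Each gene is represented by its brightest probe set over the 12 arrays, and the other probe sets serve as a check. A further 7 probe sets that name such a gene together with other symbols were left out of the gene values. RNA on all 12 arrays came from Ebf1-/- pre-pro-B cells (strain C57BL/6), B-lineage progenitors that lack the transcription factor EBF1 and were kept on a layer of OP9 stromal cells, a mouse bone marrow line, in 4% serum with SCF and Flt3L at 10 ng/ml each and IL-7 at 5 ng/ml. The cells received a retrovirus encoding EBF1 with GFP (3 arrays, set 1), PAX5 with GFP (3 arrays, set 2), or the MigR1 control virus with GFP alone (3 arrays in each set), with GFP+ cells sorted after 2 days of expression. Every group, PAX5 and control included, therefore lacks the endogenous Ebf1 gene function, and both factors were supplied by virus and not from their own loci. EBF1 is compared with the controls of set 1 and PAX5 with the controls of set 2.

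Splicing removes introns from nascent transcripts, and which exons are kept depends on proteins bound along the RNA. SR proteins mostly bind exonic enhancers and promote use of nearby splice sites, whereas hnRNPs coat nascent RNA and often silence exons, so the balance of the families influences exon choice. In lymphocytes the best known example is Ptprc, which encodes the surface phosphatase CD45: its variable exons are skipped when HNRNPLL, the lymphocyte paralog of HNRNPL, is abundant.

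The promoters of these genes share a sequence feature that the choice by name did not use, and 3 of them are printed to show it, with CpG dinucleotides in capitals. RefSeq promoter windows (GRCm38.p6) matched 27 of the 29 genes, with no entry for Hnrnpll and Hnrnpul2. The 250 bases upstream of 1 listed start are given 5′ to 3′ for each of 3 genes. These are Hnrnpl, the paralog of Hnrnpll, Hnrnpa1, a founding hnRNP, and Srsf1, the prototype SR protein. The annotated genes begin further upstream, at bases 28808546, 103239943 and 88046499, so the 3 printed windows lie inside the genes' spans.
Hnrnpl, chr7:28810640-28810889, plus strand: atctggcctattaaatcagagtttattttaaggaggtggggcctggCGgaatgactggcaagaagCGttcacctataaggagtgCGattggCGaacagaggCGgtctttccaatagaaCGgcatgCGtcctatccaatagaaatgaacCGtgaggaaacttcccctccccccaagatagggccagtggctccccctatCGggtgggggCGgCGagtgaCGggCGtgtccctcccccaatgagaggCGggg
Hnrnpa1, chr15:103240147-103240396, plus strand: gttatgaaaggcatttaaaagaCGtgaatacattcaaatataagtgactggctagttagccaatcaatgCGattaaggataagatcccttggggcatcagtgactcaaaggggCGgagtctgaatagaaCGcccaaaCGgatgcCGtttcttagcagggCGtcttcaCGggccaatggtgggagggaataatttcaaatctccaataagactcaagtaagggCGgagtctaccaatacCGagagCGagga
Srsf1, chr11:88047123-88047372, plus strand: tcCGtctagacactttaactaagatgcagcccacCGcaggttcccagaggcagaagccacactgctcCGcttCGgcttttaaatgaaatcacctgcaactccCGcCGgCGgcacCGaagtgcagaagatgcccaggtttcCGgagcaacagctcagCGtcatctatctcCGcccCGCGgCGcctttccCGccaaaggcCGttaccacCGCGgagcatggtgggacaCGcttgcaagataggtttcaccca
These windows hold 14 CpGs in Hnrnpl, 11 in Hnrnpa1 and 19 in Srsf1. Over the 39 promoter windows of the 27 genes, some of which overlap, the median was 23 CpGs and a GC content of 68.0%, beside 6 CpGs and 52.4% over 32851 windows of all genes. The ratio of observed to expected CpGs was above 0.6 in 38 of the 39 windows (97.4%) and in 34% of all windows. The core of the EBF1 motif, CCCNNGGG, searched on both strands and equal to its own reverse complement, was in 6 of the 39 windows (15.4%), against 11.8% of all windows. A core of the PAX5 motif, GCGTGAC on either strand, was in 4 (10.3%), in 2 overlapping windows of Hnrnpa2b1 and in those of Hnrnpm and Srsf6, against 1.78% of all windows. It was not in the 3 printed windows, while CCCNNGGG was in that of Hnrnpa1. GCGTGAC contains a CpG, and windows of equal CpG content were not compared, so the part of CpG density in this share was not tested.

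Median intensity over all probe sets was 55.1 to 60.6 in set 1 and 65.3 to 68.9 in set 2; precision is limited by how few arrays there are. Control arrays that carry the same number in both sets differed far less (robust SD of the log2 difference 0.0392 to 0.0942 over 12889 bright probe sets) than control arrays of unequal number (0.281 to 0.374), so each such pair was counted as 1 sample. PAX5 arrays 2 and 3 (0.0774, against 0.211 to 0.359 for the other pairs within a group) were likewise counted as 1, which leaves 3 EBF1, 2 PAX5 and 3 control samples. Nothing in the labels ties replicates to separate cultures or animals, so the spread behind each p-value may be technical. The progenitor markers Flt3 and Il7r read 1823 to 2927 and 737 to 3111 on the control arrays of set 1, and the B-cell receptor chain Cd79b 6.69 to 11.7. Over 9 of 10 listed genes of pre-pro-B cells the sum was 14419.9 to 16293.4 on EBF1 arrays, against 12006.5 to 19787.6 on their controls. On PAX5 arrays it was 13694.1 to 15875.5, against 11398.7 to 19052.5. These sums overlapped, and log2 changes of the listed pre-pro-B genes went both ways, from -1.65 to 2.73 with EBF1 and from -1.42 to 1.40 with PAX5. Summed over 19 markers of stroma, the type of the feeder cells, intensity was 3900, 2454 and 14941 on EBF1 arrays 1, 2 and 3, against 2246 to 3326 on their controls, and 1469 to 2785 on PAX5 arrays, against 2455 to 3747 on theirs. Over 9 of 10 listed genes of committed B cells the sum was 12856 to 28595 on EBF1 arrays, against 2442 to 2515 on their controls. On PAX5 arrays it was 6892 to 9446, against 2593 to 2718 on theirs. By limma, 5 of the 9 were higher with EBF1 at adjusted p under 0.05, and 2 with PAX5. Among all genes 0.22% passed with EBF1 and 0.874% with PAX5. The median log2 change over the 9 was 3.56 with EBF1 and 0.38 with PAX5, and single genes ran from -0.03 to 7.15 and from -0.17 to 5.84. Any share of virus-encoded transcript in these sums was not tested.

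The splicing factor genes were bright and steady. The mean log2 level was above 10 for 27 of the 29 (93.1%), against 17.1% of all genes, and the exceptions were Hnrnpl and Srsf12. The median residual SD within groups was 0.0881 on the log2 scale, against 0.193 for all genes. The median log2 level was 11.98, against 6.94 for all genes. Genes of equal level were not compared, so the part of brightness in the smaller spread was not tested. Log2 changes throughout are of intensity plus 16, which understates the change of dim genes, and each is positive when higher with the factor. Levels of different probe sets are not comparable as abundances. With EBF1, 0 of 29 genes passed the test (limma, Benjamini-Hochberg adjusted p under 0.05 over all genes), where 0.22% of all genes did, and 0 had an unadjusted p under 0.05, where 11.6% of all genes did. With PAX5, 1 of 29 passed, where 0.874% of all genes did, and it was lower, where 0.077% of all genes passed as lower. The same gene, Hnrnpll, was the 1 with an unadjusted p under 0.05, where 9.45% of all genes had one. The median log2 change over the 29 was -0.01 with EBF1 and -0.04 with PAX5, beside 0.01 and -0.01 over all genes.

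A p that misses the threshold does not show that a level stayed the same, so the 95% intervals of the changes were set against a limit of 0.5 on the log2 scale. Srsf12, listed near 1 on every array, cannot leave this range and was set aside. With EBF1 the interval lay inside ±0.5 for 27 of the other 28 genes (96.4%) and for 49% of all genes, which are mostly dimmer. With PAX5 it did so for 25 of 28 (89.3%) and for 39.2% of all genes. Leaving aside Hnrnpl and Hnrnpll, the outermost bounds over the other 27 genes were -0.43 and 0.46 with EBF1 and -0.54 and 0.46 with PAX5.

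**Figure D1:**
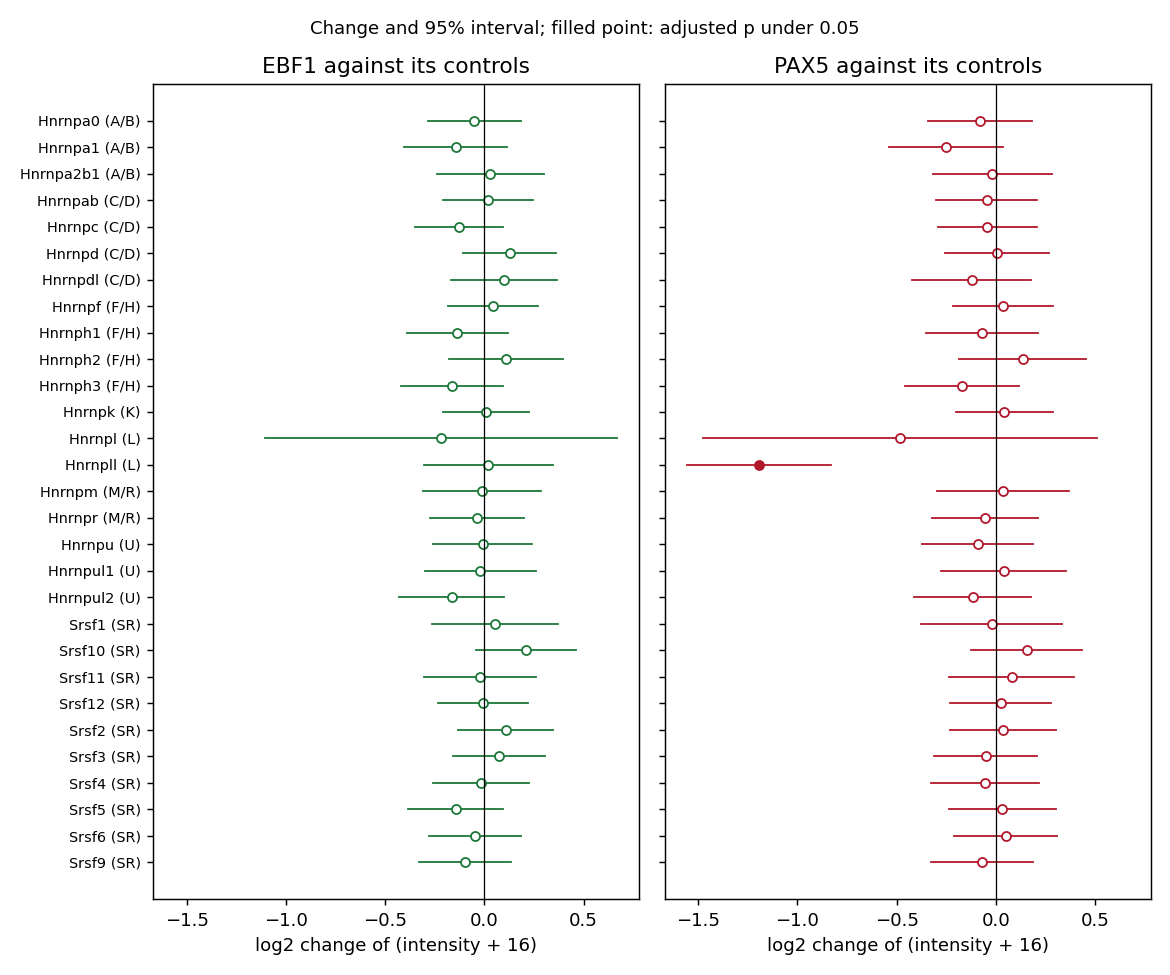
Log2 change of intensity plus 16 (horizontal axis) for each of the 29 genes, by family, with EBF1 (left) and PAX5 (right) against the controls of their set; points are estimates, lines 95% intervals from limma, and filled points passed at adjusted p under 0.05. Hnrnpll with PAX5, at -1.19, is the 1 filled point, and Hnrnpl has the widest intervals.

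Hnrnpll was the splicing factor gene that changed, and it fell with PAX5. It did not pass the test with EBF1. Its brightest probe set read 561, 774 and 741 on PAX5 arrays 1, 2 and 3, against 1499, 1369 and 1678 on the control arrays of set 2. All PAX5 arrays lay below all of their controls, as they did for 8.95% of all genes. PAX5 cells averaged 659 ± 139 (SD, n = 2) and control cells 1515 ± 156 (n = 3), a difference of -1.19 on the log2 scale (95% interval -1.56 to -0.83, SE 0.16, limma adjusted p = 0.0122), which leaves 43.8% of the control level. Among the 14 genes called lower with PAX5, 2 had a smaller p. In bulk RNA, fewer cells with the transcript and less transcript per cell cannot be told apart.

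EBF1 cells held Hnrnpll at 1567, 1385 and 1536 on arrays 1, 2 and 3, against 1454, 1352 and 1624 on the control arrays of set 1. The groups overlapped, and the log2 change of 0.02 (interval -0.31 to 0.35) had a limma adjusted p of 0.98. The EBF1 change minus the PAX5 change, tested in the same fit, was 1.21 (SE 0.16, limma adjusted p = 0.00855, interval 0.85 to 1.58), where 1.94% of all genes passed and Hnrnpll was 1 of 29 splicing factor genes that did. Both changes are measured against the same control hybridisations.

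The second Hnrnpll probe set gave nearly the same change. It read 244, 351 and 311 on PAX5 arrays, against 593, 753 and 602 on the control arrays of set 2, again without overlap. Its log2 change was -1.14 in a fit over all probe sets (limma adjusted p = 0.0362), in which 0.515% of probe sets passed with PAX5. In EBF1 cells it read 679, 733 and 629, against 551, 728 and 535 in the controls of set 1 (log2 change 0.18, limma adjusted p = 0.79).

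**Figure D2:**
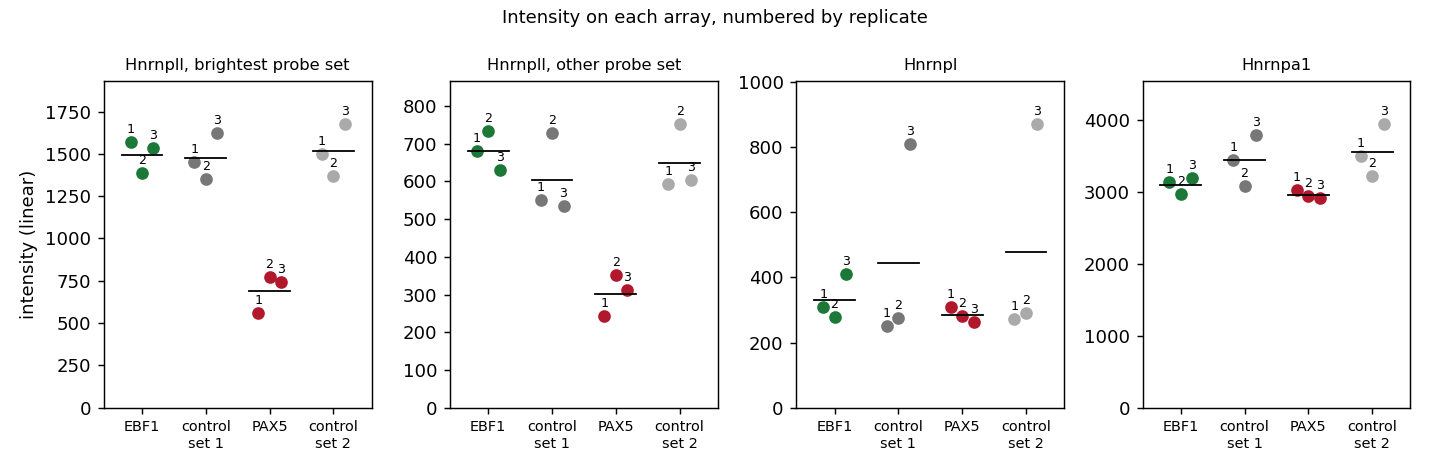
Intensity on a linear scale (vertical axis) on each array, with replicate numbers beside the points, for both Hnrnpll probe sets, Hnrnpl and Hnrnpa1; bars are means of the 3 arrays, without counting PAX5 arrays 2 and 3 as 1. The PAX5 arrays lie below every other array for both Hnrnpll probe sets, and control array 3 stands alone for Hnrnpl.

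The Hnrnpll call rests on single samples. Without PAX5 array 1, which holds the lowest Hnrnpll level, the log2 change was -0.98 with a limma adjusted p = 0.166, the lone remaining PAX5 sample being assumed to vary like the other groups, and the difference between the factors was 1.0 (adjusted p = 0.126). Without control 1 the PAX5 change was -1.20 (adjusted p = 0.051) and without control 3 -1.12 (0.0571). PAX5 array 1 also had the highest sum over 16 immediate-early genes, at 18539, beside 10879 and 11119 on PAX5 arrays 2 and 3, against 8646 to 10140 on their controls. Of those 16 genes 4 were higher at unadjusted p under 0.05 and 0 passed. Among all genes 9.45% had such a p with PAX5, in either direction, and 0.874% passed. The sum over 24 of 25 listed cell cycle genes was 63183, 74680 and 71530 on PAX5 arrays, against 74244, 65383 and 81919 on their controls, and 0 passed. The sums overlapped, with the lowest of all on PAX5 array 1, but 22 of the 24 log2 changes were negative with PAX5 (median -0.15, beside -0.01 over all genes). The sum over 7 of 8 natural killer markers was 2424, 1606 and 1525, against 1080, 815 and 672. Nkg7 and Klrd1 made up most of it. Of the 7 log2 changes 5 were positive, 2 had an unadjusted p under 0.05 and 0 passed, beside the same 9.45% and 0.874% of all genes. Of the factors in that list, Eomes read 11.5 to 15.5 on PAX5 arrays, against 3.09 to 19.6, and Tbx21 read 1 to 4.57, against 1 to 5.37. The sum over 8 of 9 myeloid markers was 2146, 1513 and 1463, against 3269, 2274 and 1860. The myeloid sums overlapped, whereas every PAX5 array exceeded its controls in the natural killer sum. The sum over 7 of 9 T-cell markers was 301 to 322, against 294 to 393, which overlap. Stromal sums are given above. The part of these lists in the Hnrnpll result was not tested.

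Hnrnpl, the paralog that binds CA-rich RNA, was dimmer and uneven. It read 309, 282 and 265 on PAX5 arrays, against 272, 292 and 872 on the control arrays of set 2. It read 310, 278 and 409 on EBF1 arrays, against 250, 276 and 811 on the control arrays of set 1. Control array 3, counted as 1 sample over both sets, stood far above every other array. The log2 change was -0.48 with PAX5 (SE 0.43, limma adjusted p = 0.83) and -0.22 with EBF1 (SE 0.39, 0.89), and without control 3 it was 0.04 and 0.30. The PAX5 interval, -1.48 to 0.51, includes the value seen for Hnrnpll, and the difference between the paralogs was not tested. The other Hnrnpl probe set was dim in set 1, at 4.90 to 19.8, and is not informative there. In set 2 it read 51.0 to 69.6 on PAX5 arrays, against 34.3 to 68.3 on their controls, which overlap. Its log2 change with PAX5 was 0.20 in a fit over all probe sets (limma adjusted p = 0.89), of opposite sign to the brightest one. Control arrays of equal number disagree between the sets for this probe set, so its value is uncertain.

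The hnRNPs of the A/B type silence exons and antagonise SR proteins. Of Hnrnpa0, Hnrnpa1 and Hnrnpa2b1, 0 passed the test by limma, where 0.22% of all genes did with EBF1 and 0.874% with PAX5. An unadjusted p under 0.05 was reached by 0 of them, where 11.6% and 9.45% of all genes had one. Their log2 changes were -0.14 to 0.03 with EBF1 and -0.25 to -0.02 with PAX5. Hnrnpa1 read 3029, 2947 and 2909 on PAX5 arrays, against 3503, 3226 and 3948 on the control arrays of set 2. The PAX5 arrays all lay below the controls, but the log2 change of -0.25 (SE 0.13) did not pass (limma adjusted p = 0.61), and its interval of -0.54 to 0.04 reaches past -0.5. Its other probe sets stood at -0.28 and -0.69 with PAX5 (adjusted p = 0.68 and 0.59 by limma), and the mean over its probe sets gave -0.41 (0.438). On EBF1 arrays Hnrnpa1 read 3137, 2966 and 3192, against 3439, 3086 and 3784, overlapping (-0.14, adjusted p = 0.68). The annotation gives 3 more probe sets that name Hnrnpa1 together with Hnrnpa1l2-ps2 and predicted genes, so near-identical copies may share signal with Hnrnpa1. Hnrnpa0 and Hnrnpa2b1 stood at -0.05 and 0.03 with EBF1 and at -0.08 and -0.02 with PAX5. Hnrnpa3, also of this type, is not among the genes counted, since its probe sets also name the predicted gene Gm6793. Those probe sets stood at -0.13 to 0.07 with EBF1 and at -0.27 to -0.06 with PAX5.

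Among the C and D type genes, Hnrnpc encodes a protein that binds uridine tracts of nascent transcripts, and Hnrnpd encodes AUF1, which binds AU-rich elements and affects mRNA decay. Hnrnpc read 6635, 6484 and 6469 on EBF1 arrays, against 7000, 7011 and 7410 on the control arrays of set 1. The EBF1 arrays lay below all controls (log2 change -0.13, SE 0.10, limma adjusted p = 0.67). With PAX5 it read 6801, 6787 and 6404, against 6776, 6782 and 7137, which overlap (-0.04, adjusted p = 0.96). Hnrnpd lay above its controls on every EBF1 array, though 3974 on EBF1 array 2 barely exceeded 3973 on control array 2 (log2 change 0.13, adjusted p = 0.69). Hnrnpab stood at 0.02 with EBF1 and -0.05 with PAX5, and Hnrnpdl at 0.10 and -0.12.

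The F and H type proteins bind runs of guanines. Hnrnph3 read 1320, 1164 and 1258 on PAX5 arrays, against 1440, 1421 and 1405 on their controls, below them without overlap, and the log2 change was -0.17 (limma adjusted p = 0.78). On EBF1 arrays it read 1203, 1168 and 1397, against 1435, 1419 and 1352, an overlap at a log2 change of -0.16 (adjusted p = 0.64). Hnrnpf, Hnrnph1 and Hnrnph2 stood between -0.14 and 0.14 in both comparisons. Hnrnpk, whose protein binds cytosine-rich stretches, varied little, with every array between 5996 and 6336. All PAX5 arrays were above their controls for Hnrnpk, at a log2 change of only 0.04 (SE 0.11, adjusted p = 0.96).

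Hnrnpm and Hnrnpr stood at -0.01 and -0.04 with EBF1 and 0.04 and -0.05 with PAX5. Of the U type, whose founder HNRNPU also binds scaffold-attached DNA, Hnrnpul2 was the lowest with EBF1. It read 1382, 1241 and 1335 on EBF1 arrays, against 1551, 1319 and 1578 on their controls, which overlap (log2 change -0.16, SE 0.12, limma adjusted p = 0.64). On PAX5 arrays it read 1399, 1360 and 1363, against 1557, 1323 and 1632, also overlapping (-0.12, adjusted p = 0.88). Hnrnpu and Hnrnpul1 lay between -0.09 and 0.04 in both comparisons.

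None of the 10 SR genes passed in either comparison by limma, where 0.22% of all genes did with EBF1 and 0.874% with PAX5. In the EBF1, PAX5 and difference tests 0 had an unadjusted p under 0.05, where 11.6%, 9.45% and 17% of all genes had one. Their log2 changes ran from -0.14 to 0.21 with EBF1 and from -0.07 to 0.16 with PAX5. By brightest probe sets, Srsf10, whose protein becomes a splicing repressor when dephosphorylated, was the highest in both comparisons. It read 2181, 1938 and 2024 on EBF1 arrays, against 1713, 1733 and 1858 on their controls, above them without overlap (log2 change 0.21, SE 0.11, limma adjusted p = 0.52, interval -0.04 to 0.46). On PAX5 arrays it read 2145, 1846 and 1950, against 1752, 1747 and 1935, which overlap (0.16, adjusted p = 0.79). The other Srsf10 probe sets stood at 0.25, 0.23 and 0.38 with EBF1, but at -0.004, -0.03 and -0.03 with PAX5.

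Srsf5 had the lowest log2 change of the SR genes with EBF1. It read 5603, 5071 and 5167 on EBF1 arrays, against 5815, 5725 and 5965 on their controls, all below (log2 change -0.14, SE 0.11, limma adjusted p = 0.65). On PAX5 arrays it read 6136, 5517 and 5456, against 5623, 5567 and 5817, an overlap (0.03, adjusted p = 0.97). Srsf1, the prototype of the family, read 6183, 5018 and 6030 on EBF1 arrays, against 5456, 4810 and 6381 on their controls. On PAX5 arrays it read 5458, 5243 and 5340, against 5355, 4805 and 6286. Both comparisons overlapped, at log2 changes of 0.05 and -0.02, and control array 3 was the highest array of all. Srsf2, Srsf3, Srsf4, Srsf6, Srsf9 and Srsf11 stood between -0.10 and 0.11 with EBF1 and between -0.07 and 0.08 with PAX5. Srsf12 was at 1 to 2.31 on all 12 arrays, at the bottom of the scale, so its values have no order and say nothing of a change.

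Counted over the 29 genes, the EBF1 arrays lay all above their controls for 3 (Hnrnpd, Srsf2 and Srsf10), as they did for 7.67% of all genes. They lay all below for 2 (Hnrnpc and Srsf5), as for 6.76% of all genes, so 5 of 29 did not overlap where 14.4% of all genes did not. The PAX5 arrays lay all above for 1 (Hnrnpk), as for 9.34% of all genes, and all below for 4 (Hnrnpa1, Hnrnph3, Hnrnpll and Srsf9), as for 8.95%, so 5 of 29 did not overlap where 18.3% of all genes did not. Of these, Hnrnpll alone passed limma's test. Control array 3 was the array on which these genes were highest: 6 of 29 lay below the control mean of set 1 there, against 18 and 20 on control arrays 1 and 2, and the median difference was 0.05. EBF1 array 2 had the lowest median, at -0.11 with 20 of 29 below, and EBF1 array 3, the array with most stromal signal, stood at 0.02 with 11 below. PAX5 arrays 1, 2 and 3 had 16, 20 and 21 below, with medians of -0.01, -0.04 and -0.05. Over all genes the median difference was -0.04 on control array 3 of set 1 and 0.01 on each EBF1 array. On PAX5 arrays 1, 2 and 3 it was -0.02, 0.00 and 0.00 over all genes.

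**Figure D3:**
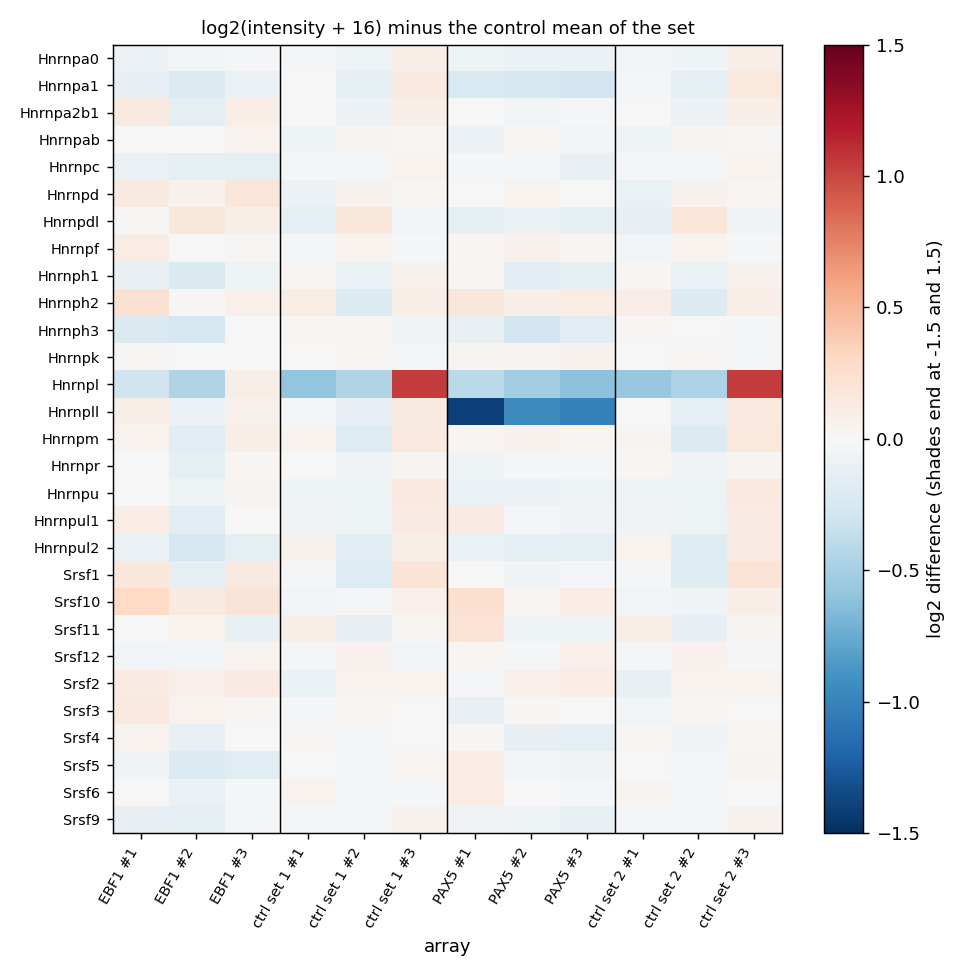
Log2(intensity + 16) minus the control mean of the same set (colour) for the 29 genes (rows) on the 12 arrays (columns, by group). The dark cells are Hnrnpll on the 3 PAX5 arrays and Hnrnpl on control array 3, shown in both sets, with the other Hnrnpl cells mostly blue against a control mean that includes array 3; the remaining rows are pale.

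The 62 other probe sets, from 20 of the genes, also singled out Hnrnpll. With EBF1 0 of 62 passed in the fit over all probe sets by limma, where 0.0977% of all probe sets did, and 3 had an unadjusted p under 0.05, all higher, where 9.97% of all probe sets had one. These were 2 Hnrnpab probe sets at 0.54 and 0.47 and an Hnrnpdl probe set at 0.38, whereas the brightest probe sets of these genes stood at 0.02 and 0.10. The Hnrnpab probe set at 0.54 read 114, 93 and 116 on EBF1 arrays, against 54.8, 78.8 and 75.2 on the control arrays of set 1, yet 927, 1304 and 1315 on PAX5 arrays, against 1142, 1434 and 1365 on the control arrays of set 2. Control arrays of equal number thus disagree widely between the sets for this probe set, and its value is uncertain. The same holds for an Hnrnph1 probe set, at 185, 146 and 166 on the control arrays of set 1 and 2463, 2407 and 2435 on those of set 2. It also holds for the second Hnrnpl probe set. With PAX5 1 of 62 passed, the second one of Hnrnpll, and 4 had an unadjusted p under 0.05, all lower, where 8.51% of all probe sets had one. The other 3 were probe sets of Hnrnpr at -0.85, Hnrnpu at -0.45 and Hnrnpdl at -0.41, with adjusted p of 0.36, 0.49 and 0.43 by limma. The brightest probe sets of Hnrnpr, Hnrnpu and Hnrnpdl, at -0.05, -0.09 and -0.12, did not share these sizes. For the difference 1 of 62 passed (Hnrnpll), where 1.05% of all probe sets did, and 7 had an unadjusted p under 0.05, all positive, where 14.7% of all probe sets had one.

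**Figure D4:**
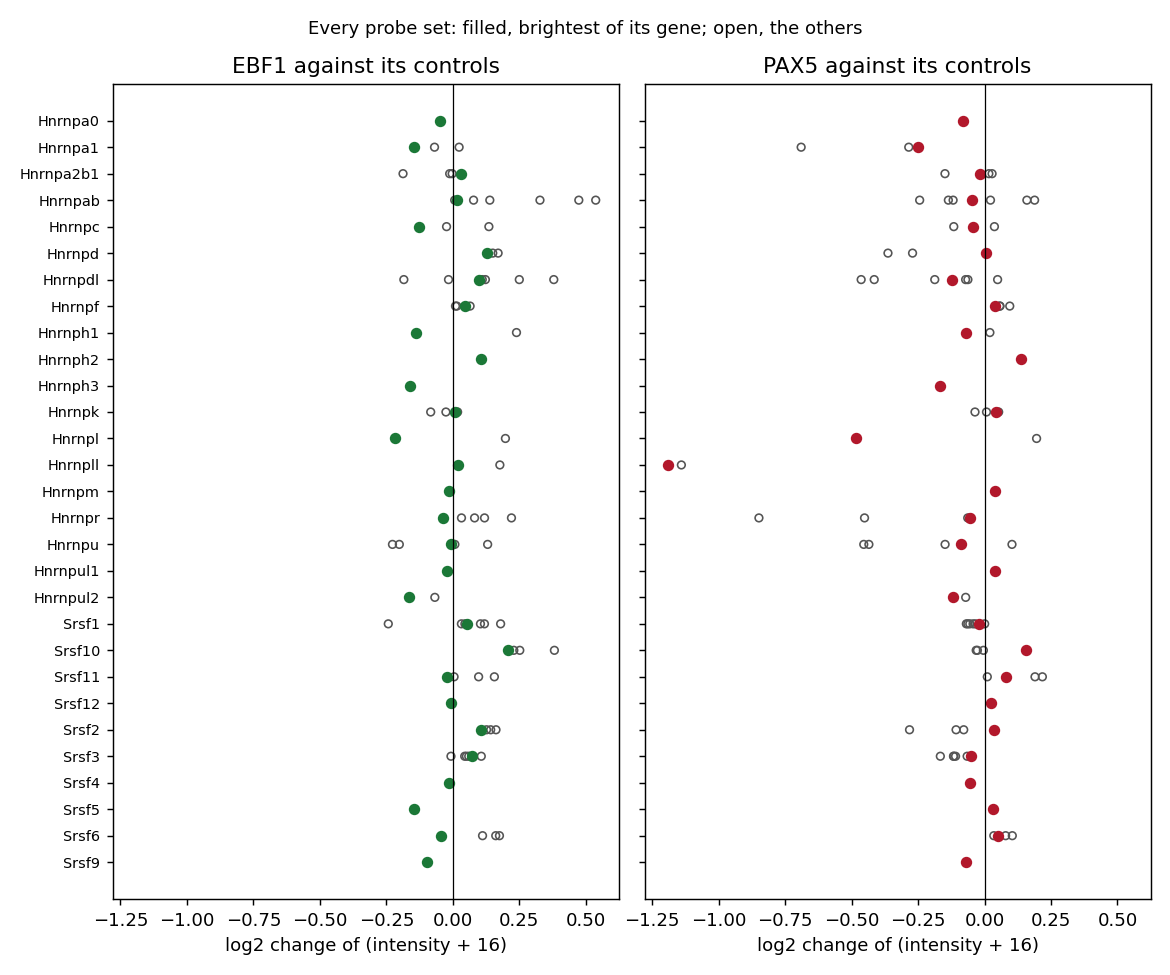
Log2 change of intensity plus 16 (horizontal axis) of every probe set of the 29 genes, with EBF1 (left) and PAX5 (right); filled points are the brightest probe set of a gene and open points the others. Both Hnrnpll probe sets lie near -1.1 to -1.2 with PAX5. Some less bright probe sets of Hnrnpr, Hnrnpa1, Hnrnpu and Hnrnpdl lie to the left of the brightest one of their gene.

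Few genes of the other splicing lists passed. Of 54 measured genes of the core spliceosome, 0 passed with EBF1 and 0 with PAX5 by limma, with 1 and 3 at unadjusted p under 0.05, where 11.6% of all genes had one with EBF1 and 9.45% with PAX5. The median log2 change was 0.00 with EBF1 and -0.04 with PAX5. The smallest p with EBF1 were those of Prpf4 (log2 change 0.28, adjusted p = 0.43) and Prpf31 (0.27, 0.44), both of the U4/U6 snRNP, and with PAX5 those of the helicase gene Dhx16 (0.36, 0.46) and U2af1l4 (-0.29, 0.47). Of 22 kinases and partners of SR proteins 0 passed in either comparison, with 0 and 1 at unadjusted p under 0.05. Srpk1, which phosphorylates SR proteins, read 925, 1056 and 934 on PAX5 arrays, against 1159, 1646 and 1308 on their controls, without overlap (log2 change -0.49, limma adjusted p = 0.37). Srpk3 stood at 0.35 with PAX5 (0.76), and the kinase gene Clk1 and the splicing activator gene Tra2a stood at -0.33 (0.45) and 0.28 (0.45) with EBF1.

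Of 59 other splicing regulators 0 passed with EBF1 and 1 rose with PAX5, with 3 and 8 at unadjusted p under 0.05 (5.08% and 13.6% of the list, beside the same 11.6% and 9.45% of all genes). Among all genes 0.22% passed with EBF1 and 0.874% with PAX5. The one that rose was Esrp1, an epithelial splicing regulator, at 55.3, 47.9 and 51.4 on PAX5 arrays, against 14.4, 12.3 and 15.9 on the control arrays of set 2. The groups did not overlap (log2 change 1.18, SE 0.12, limma adjusted p = 0.00347), but the gene is dim, and the same control hybridisations read 1 to 4.53 in set 1. The call was lost with a pseudocount of 1 (log2 change 1.82, adjusted p = 0.0865) and without PAX5 array 1 (1.12, 0.0704). EBF1 arrays listed Esrp1 at 1 to 2.36, so no change can be read there. With EBF1 the smallest p were those of Rbm20 (0.46, adjusted p = 0.27 by limma) and Celf2 (-0.25, 0.40).

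Ptprc, whose exons HNRNPLL regulates, was bright in all groups by its brightest probe set. It read 6571, 5853 and 5773 on PAX5 arrays, against 6255, 5897 and 5609 on their controls, overlapping at a log2 change of 0.06 (limma adjusted p = 0.94). On EBF1 arrays it read 4781, 5257 and 4988, against 6434, 6052 and 5693 on their controls, all lower, at a log2 change of -0.27, which did not pass (limma adjusted p = 0.39). Another Ptprc probe set was far less bright. It read 331, 160 and 194 on PAX5 arrays, against 195, 202 and 199 on their controls (log2 change 0.27). On EBF1 arrays it read 133, 141 and 136, against 170, 186 and 168 (log2 change -0.32). Neither change passed in the fit over all probe sets (limma adjusted p = 0.83 and 0.65). A single value per probe set does not show which Ptprc exons were used.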

How the data were processed

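The authors deposited 1 linear intensity per probe set and array, from biotin-labelled cRNA, per the labels; the summarisation and normalization are not given in the sources used here. Many dim probe sets are listed at exactly 1. Genes were named with the platform's own annotation, in which 34945 of 45037 probe sets have 1 symbol, 932 several and 9160 none; Entrez IDs linked 34741 to RefSeq genes of GRCm38.p6.

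Intensities were used as log2(intensity + 16), with no filter or further normalization. Set 2 arrays were shifted per gene by the offset between the control sets, same-numbered control arrays were averaged, and so were PAX5 arrays 2 and 3. A single limma 3.58.1 fit of 3 group means (R 4.3.3, 5 residual degrees of freedom, data.table package, version 1.17.8) gave both comparisons and their difference. Tests were two-sided, with Benjamini-Hochberg adjustment over 18193 genes. The fit was also run on simulated data that followed its own assumptions, with same-numbered controls and PAX5 arrays 2 and 3 built as copies. That run cannot check those choices. Figures used matplotlib 3.10.9 and pandas 2.3.3 (Python 3.11.15). Deviations of EBF1 and control arrays of equal number correlated at 0.345, 0.608 and 0.391, and those of PAX5 at 0.411, 0.194 and 0.333. No correlation was computed for arrays of unequal number. By robust SD, EBF1 arrays 2 and 3 were nearest the control array of their number (0.193 and 0.261). EBF1 array 1 was nearer control array 2 (0.283) than control array 1 (0.318). Whether the numbers pair the arrays was thus not settled, and the main fit uses no pairing. PAX5 arrays 2 and 3 count as 1 sample, which leaves too few pairs to judge.

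Values are given for genes past a test, the 5 smallest p per comparison, Hnrnpll, Hnrnpl, Hnrnpa1 and Srsf1, and for other splicing lists those past the test or the 2 smallest p. Genes, lists and this fit were chosen with earlier results of these data known, after several ways of counting the arrays had been tried. Genes named for other reasons, such as groups that do not overlap, were chosen after their values were seen. Alternatives changed the array count, pseudocount, probe sets, filter, normalization, variance trend and replicate block, and left out each replicate.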

Additional observations from a re-analysis of the deposited data

Results flagged for a closer look

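The responses of Hnrnpll to the 2 factors differed: its EBF1 change minus its PAX5 change was 1.21 on the log2 scale (limma adjusted p = 0.00855), with all 3 PAX5 arrays below their controls and the EBF1 arrays overlapping theirs. For Esrp1 the same difference was -1.22, with all 3 PAX5 arrays above their controls. Its EBF1 arrays read 1 to 2.36 and their controls 1 to 4.53, where no change can be measured, so this value does not show that the responses differ. No group of arrays was large enough to test for single arrays that stand apart.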

How the results depend on the processing

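Under all 18 alternatives 0 of the 29 splicing factor genes passed with EBF1. With PAX5 the count stayed at 1 except when a replicate was left out, where it ran from 0 to 1 (0 without control 1, control 3 or PAX5 array 1), and for the difference it ran from 0 to 1 (0 without PAX5 array 1). The log2 change of Hnrnpll with PAX5 ran from -1.26 to -0.98, with limma adjusted p from 0.00117 to 0.166, past the threshold in 15 of 18 alternatives. The median change with PAX5 ran from -0.0544 to 0.0074 with replicates left out, the highest without control 3. Among genes that were not called, 15 values changed sign under an alternative, of 494 values followed in all, and the causes were not tested. With the replicate block, fitted on the 6 arrays of a set, the median change was -0.01 with EBF1 and -0.03 with PAX5, and Hnrnpll stood at -1.12 with PAX5 (limma adjusted p = 0.0451). That fit counts PAX5 arrays 2 and 3 as separate samples, so its p rests on more samples than are distinct. No other gene of the 29 passed under the block. The block was not run for the difference between the factors. Over all genes it called 5 with EBF1, against 40, and 251 with PAX5, against 159; the block also fits each set alone and counts all of its arrays, so these counts do not isolate the pairing. Counting all 12 arrays separately called 201, 357 and 156 genes for EBF1, PAX5 and the difference, against 40, 159 and 353. A pseudocount of 1 called 23, 84 and 194. Leaving out replicates gave 10 to 406 (without EBF1 array 3), 28 (without PAX5 array 1) to 176, and 55 (without PAX5 array 1) to 575. With EBF1 a pseudocount of 64 called 10, and a filter on dim genes 16. Signal limits what can be said of Srsf12, Esrp1 and the second Hnrnpl probe set, which are dim.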

Other observations

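The 7 probe sets that name a gene of this family together with other symbols, and so stand for no single gene, moved little: their log2 changes ran from -0.21 to 0.07 with EBF1 and from -0.32 to -0.06 with PAX5, and 0 passed limma's test in either comparison or had an unadjusted p under 0.05. Among all probe sets 0.0977% passed with EBF1 and 0.515% with PAX5, and 9.97% and 8.51% had such an unadjusted p.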
